A study of Mus musculus with 6 samples.

Results

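Fibrillar collagens are the rope-forming members of the collagen superfamily, and their transcripts were examined in mouse cardiac fibroblasts with and without Cre-mediated deletion of *Tet3*. The 9 genes were the rows of the gene table with the symbols *Col1a1*, *Col1a2*, *Col3a1*, *Col5a1*, *Col5a2*, *Col5a3*, *Col11a1*, *Col24a1* and *Col27a1*, out of 22063 genes. All 9 had enough counts to be tested, as did 12862 genes in all. Cardiac fibroblasts of Tet3 f/f mice, whose *Tet3* alleles carry loxP sites for excision by Cre, were cultured and given an adenovirus that coded for GFP (GFP libraries, n = 3) or for Cre recombinase (CRE libraries, n = 3). The GFP libraries are labelled as control and the CRE libraries as *Tet3* knockout, and both groups had been treated with TGF-β, a cytokine that drives fibroblasts to make matrix. The comparison asks which transcripts differed when TET3, an enzyme that oxidises methylated cytosine in DNA, was deleted under TGF-β. The control virus carried no Cre, so an effect of the Cre protein and an effect of *Tet3* loss cannot be told apart. Cells without TGF-β and the ages of the mice were not analysed here. The labels do not say whether the 3 libraries of a group came from separate cultures or animals. The study's legend to the figure with this RNA-seq gives 3 biological replicates, without saying whether these were cultures or animals. The p-values measure the spread between these libraries, which may be technical.

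A fibrillar collagen is made as 3 chains, each a long repeat of Gly-X-Y triplets with glycine in a fixed place, that wind into a triple helix, lose their end propeptides outside the cell and pack side by side into striated fibrils. Type I collagen (chains from *Col1a1* and *Col1a2*) and type III collagen (*Col3a1*) are the bulk of the scar and interstitial matrix of the heart. The type V (*Col5a1*, *Col5a2*, *Col5a3*) and type XI (*Col11a1*) chains join the same fibrils in small amounts, where they start fibril growth and limit fibril width. Types XXIV (*Col24a1*) and XXVII (*Col27a1*) form a separate branch of the family, known from bone and cartilage.

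The repeat that defines the family was read from the gene models (GENCODE M21, GRCm38), as the longest run of codons with GGN, a glycine codon, as the first codon of each triplet. It held between 337 and 344 triplets in *Col1a1*, *Col1a2*, *Col3a1*, *Col5a1*, *Col5a2*, *Col5a3* and *Col11a1*. In *Col24a1* and *Col27a1* the longest run was shorter, at 216 and 217 triplets. These 2 genes, with the shorter run, also had the lowest levels of the 9 in these cells. The repeat is laid out in short exons: between 42.9% (*Col1a1*) and 56.9% (*Col24a1*) of the whole coding exons of each gene were 54 bases long, against 0.567% of 157875 coding exons of other genes. Between 76.6% (*Col5a1*) and 90.0% (*Col1a2*) had a length that was a multiple of 9 bases, the length of 1 Gly-X-Y triplet, against 14.0% elsewhere. One such 54-base exon is shown for both type I chains and for *Col3a1* and *Col5a2*, the 4 with the most counts of the 9 genes. Capitals mark the first codon of each triplet, the GGN codon of the repeat; a glycine codon in another place of a triplet is left in lower case. The exons are exon 8 of 51 of *Col1a1* (chr11:94939904-94939957, + strand), exon 8 of 52 of *Col1a2* (chr6:4515481-4515534, + strand), exon 6 of 51 of *Col3a1* (chr1:45325360-45325413, + strand) and exon 10 of 54 of *Col5a2* (chr1:45422386-45422439, - strand), all in GRCm38.
Col1a1: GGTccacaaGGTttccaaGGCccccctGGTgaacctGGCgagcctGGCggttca
Col1a2: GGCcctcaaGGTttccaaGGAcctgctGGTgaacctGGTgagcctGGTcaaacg
Col3a1: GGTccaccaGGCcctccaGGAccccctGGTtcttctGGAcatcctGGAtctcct
Col5a2: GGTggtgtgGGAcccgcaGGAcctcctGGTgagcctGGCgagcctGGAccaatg

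In CRE, 7 members were lower, and *Col27a1* alone among the members was higher. *Col1a1* stood at 60.1% of its GFP level, *Col1a2* at 63.9%, *Col3a1* at 42.1%, *Col5a2* at 44.3% and *Col11a1* at 54.6%. *Col5a1* and *Col5a3* fell less, to 71.5% and 71.1%. By edgeR's quasi-likelihood test with Benjamini-Hochberg adjustment over all tested genes, 7 of the 9 members were lower, 1 was higher and 1, *Col24a1*, did not pass the threshold of 0.05. Of all 12862 tested genes, 25.7% were called lower and 25.5% higher. The 3 CRE libraries lay below all 3 GFP libraries for 7 members, above them for 1, and overlapped with them for 1. Over all tested genes those patterns were held by 29.6% and 30.0%. Calls to the higher side were 49.8% of all calls, and 72.6% when libraries were scaled by their total alone. The median log2 fold change was -0.65 over the members and 0.0052 over all tested genes. The 9 genes took 4.31% ± 0.039 of a GFP library's counts and 2.66% ± 0.11 of a CRE library's (SD, n = 3 each), with p = 0.1 by the two-sided exact permutation test, the smallest that 3 against 3 can give.

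**Figure D1:**
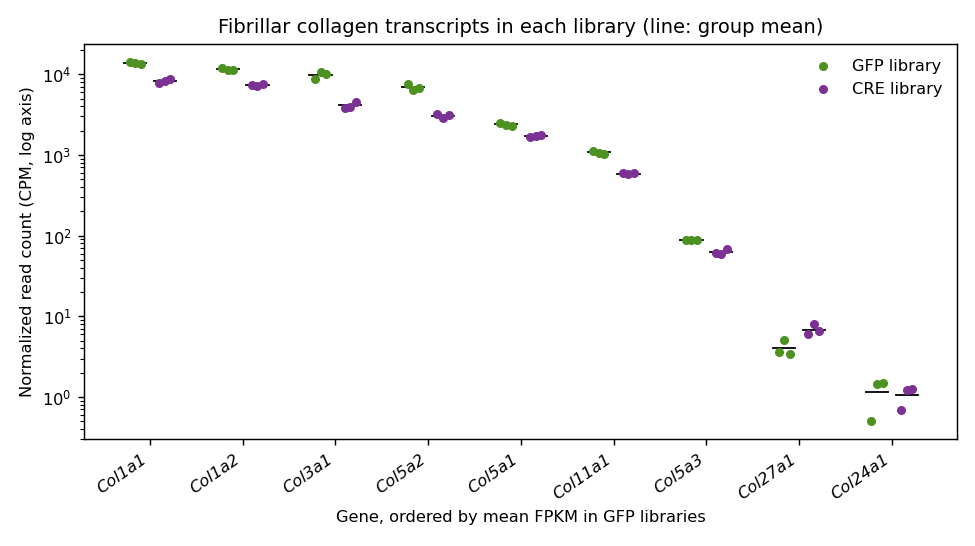
Normalized read count (CPM, log axis) of each fibrillar collagen gene in 3 GFP (green) and 3 CRE (purple) libraries, with black lines at the group means and genes ordered by mean FPKM in GFP. The 7 genes from *Col1a1* to *Col5a3* have every CRE point below every GFP point, *Col27a1* has them above, and the points of *Col24a1*, near 1 CPM, overlap.

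Total gene counts were between 17002126 and 20343590 per library. *Tet3*, the deleted gene, had 1044, 965 and 1000 counts in GFP against 642, 649 and 637 in CRE, a log2 fold change of -0.72 (SE 0.082, edgeR adjusted p = 5.36e-05). These are counts over the whole gene, so exons outside the floxed stretch are included. Of the markers of the labelled cell type, 9 of 10 fibroblast genes were called lower and none higher, and their summed level was between 7404 and 7675 CPM in GFP and between 4284 and 4538 CPM in CRE. The endothelial list (8 of 10 lower, none higher) summed to between 397.4 and 431.4 CPM in GFP and between 206.9 and 233.3 CPM in CRE, with *Pecam1* and *Cdh5* present in every library. The macrophage list (3 of 6 tested genes lower, none higher) stood between 58.5 and 66.4 CPM against 34.7 to 38 CPM, and smooth muscle and pericyte genes (5 of 9 lower, 1 higher) between 119.7 and 129.2 CPM against 94.0 to 109.2 CPM. Epicardial and mesothelial genes (1 of 3 tested lower, 2 higher) summed to at most 8.86 CPM in any library, chondrocyte genes (4 of 5 tested lower, 1 higher, *Matn1* at 0 throughout) to between 64.5 and 65.5 CPM against 31.2 to 33.8 CPM, and cardiomyocyte genes to at most 1.13 CPM, with *Myh6* at 0 throughout. The part of these shifts in the collagen values was not tested, and in bulk RNA fewer cells of a type and less RNA per cell cannot be told apart.

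The type I chains were the most abundant members. The α1 chain gene *Col1a1* (chr11:94936224-94953042, + strand, 51 exons) had 14215, 13626 and 13347 CPM (counts scaled to library size after correction by the trimmed mean of M values, TMM) in GFP replicates 1, 2 and 3, and 7877, 8176 and 8691 CPM in the CRE replicates. The α2 chain gene *Col1a2* (chr6:4504814-4541544, + strand, 52 exons) had 11865, 11437 and 11401 CPM in GFP and 7261, 7228 and 7685 CPM in CRE. For both genes the lowest GFP library was well above the highest CRE library, and the coefficient of variation within a group was between 2.23% and 4.99%. The log2 fold change was -0.74 for *Col1a1* (SE 0.045, edgeR adjusted p = 1.08e-06) and -0.65 for *Col1a2* (SE 0.039, edgeR adjusted p = 9.95e-07). In rank by mean count among all genes of the table, *Col1a1* moved from 2 in GFP to 3 in CRE and *Col1a2* from 3 to 4. Each triple helix of type I collagen usually holds a pair of α1 chains and a single α2 chain. Per length, the transcripts were near parity: the ratio of *Col1a1* to *Col1a2* FPKM (fragments per kilobase of transcript, scaled to the reads of the library) was 1.07 ± 0.013 in GFP and 1.0 ± 0.023 in CRE (SD, n = 3 each).

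*Col3a1* had the lowest log2 fold change of the 9 genes. Its product is the single chain of type III collagen, which co-assembles with type I collagen in distensible tissues. *Col3a1* (chr1:45311538-45349706, + strand, 51 exons) had 8674, 10683 and 10057 CPM in GFP and 3862, 3983 and 4524 CPM in CRE. GFP replicate 1 was the lowest of its group, and it still held 8674 CPM against 4524 CPM in the highest CRE library. The log2 fold change was -1.25 (SE 0.080, edgeR adjusted p = 1.40e-06), and it was between -1.33 and -1.19 with each library left out in turn. By mean count the gene was at rank 5 of the table in GFP and at rank 11 in CRE. Only 2.78% of tested genes had a lower log2 fold change. *Col5a2* (-1.17, SE 0.062) was close to *Col3a1*. Their order turned without GFP replicate 2 (-1.19 for *Col3a1* and -1.22 for *Col5a2*) and without CRE replicate 1 (-1.20 and -1.21).

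The type V chain genes fell by different amounts. *Col5a2* encodes the α2 chain of the common type V heterotrimer, and *Col5a1* the α1 chain, of which that heterotrimer holds a pair. *Col5a2* (chr1:45374321-45503282, - strand, 54 exons) had 7477, 6470 and 6794 CPM in GFP and 3249, 2863 and 3086 CPM in CRE. *Col5a1* (chr2:27886425-28039514, + strand, 66 exons) had 2522, 2353 and 2316 CPM in GFP and 1670, 1723 and 1749 CPM in CRE. The groups were apart for both genes, by a wider margin for *Col5a2*. The log2 fold change was -1.17 for *Col5a2* (SE 0.062, edgeR adjusted p = 5.08e-07) and -0.48 for *Col5a1* (SE 0.044, edgeR adjusted p = 1.27e-05). *Col5a3*, the gene of the rarer α3 chain (chr9:20770050-20815067, - strand, 67 exons), was far less abundant, at 87.9, 87.1 and 88.9 CPM in GFP and 60.9, 58.5 and 68.2 CPM in CRE. Its GFP libraries were the closest of any member, with a coefficient of variation of 1.0%. The log2 fold change of *Col5a3* was -0.49 (SE 0.059, edgeR adjusted p = 7.63e-05). The span of *Col5a1* also overlaps *2810430I11Rik* and *Gm13372* on the opposite strand. The sources do not say whether reads were counted by strand, and overlap of exons was not examined. Whether reads of these genes entered its counts is therefore not known. The same holds for *Gm26274*, opposite to *Col5a3*. It also holds for same-strand genes that overlap *Col1a2* (*Gm43921*), *Col3a1* (*Gm47302*), *Col5a2* (*Gm38211*) and *Col27a1* (*Mir455*).

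*Col11a1*, which encodes a type XI chain that can also join type V chains in 1 molecule, had 54.6% of its GFP level in CRE. The gene (chr3:114030540-114220718, + strand, 67 exons) had 1114, 1070 and 1041 CPM in GFP and 597.4, 573.9 and 590.5 CPM in CRE. The CRE libraries were the tightest of any member, with a coefficient of variation of 2.06%. The log2 fold change was -0.87 (SE 0.043, edgeR adjusted p = 3.80e-07), and the gene moved from rank 99 to rank 178 by mean count. The genes of the other chains of type XI collagen, which are not among the 9, were scarce. *Col2a1*, the main collagen gene of cartilage, had between 3 and 35 counts in a library and was lower in CRE (log2 fold change -2.31, SE 0.39, edgeR adjusted p = 0.000715). *Col11a2* had between 16 and 70 counts and was higher (1.21, SE 0.28, edgeR adjusted p = 0.00517).

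The type XXIV and XXVII genes were at the limit of detection or just above it. *Col27a1* (chr4:63214004-63334991, + strand, 61 exons) had 58, 89 and 65 counts in GFP and 111, 145 and 123 counts in CRE. That is 3.61, 5.02 and 3.38 CPM against 5.96, 8.03 and 6.49 CPM, so every CRE library was above every GFP library. The log2 fold change of *Col27a1* was 0.77 (SE 0.18, edgeR adjusted p = 0.00539), or 170.7% of the GFP level. *Col24a1* (chr3:145292472-145552011, + strand, 60 exons) had 8, 26 and 29 counts in GFP and 13, 22 and 24 counts in CRE. At this depth no difference was detectable, with a log2 fold change of -0.15 (SE 0.41, edgeR adjusted p = 0.788) and a sign that turned (0.015) when libraries were scaled by their total alone. The span of *Col24a1* also overlaps *9530034A14Rik* on the opposite strand and *D530037P16Rik* on its own. Whether reads of these genes entered its few counts was not tested.

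**Figure D2:**
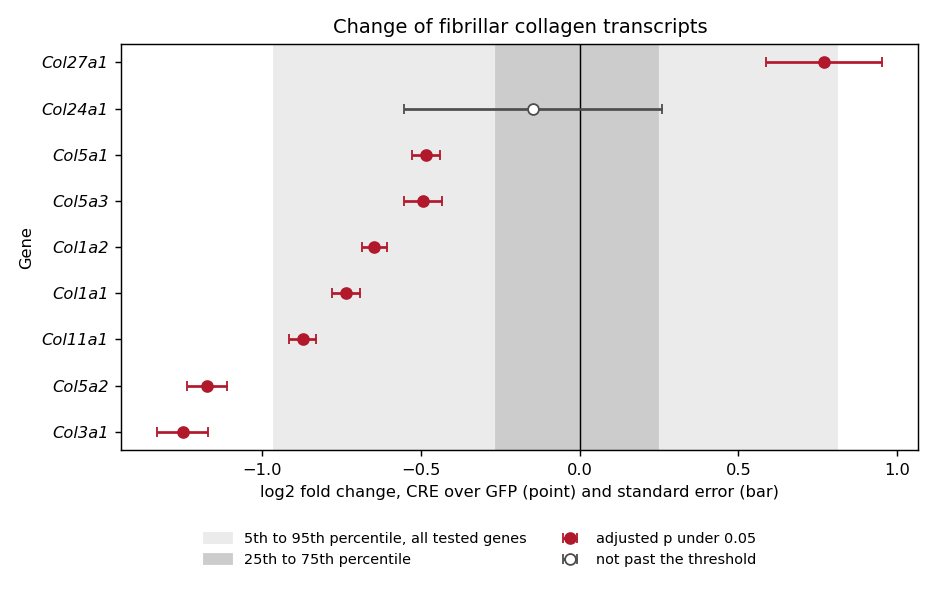
log2 fold change (CRE over GFP, edgeR) of each fibrillar collagen gene with its standard error as a bar, from *Col3a1* at -1.25 to *Col27a1* at 0.77, filled where the adjusted p was under 0.05. The light and dark bands hold the middle of the distribution of all 12862 tested genes (5th to 95th and 25th to 75th percentile), and *Col3a1* and *Col5a2* lie outside the light band.

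Per length, using the FPKM values as deposited, the order of levels was the same in both groups. In GFP, *Col1a1* (2187 ± 67.4 FPKM) was followed by *Col1a2* (2049 ± 42.6), *Col3a1* (1749 ± 176.2), *Col5a2* (986.0 ± 72.1), *Col5a1* (466.6 ± 21.5), *Col11a1* (134.7 ± 4.27), *Col5a3* (13.6 ± 0.15), *Col27a1* (0.60 ± 0.11) and *Col24a1* (0.15 ± 0.076; SD, n = 3). In CRE the FPKM levels were 1471 ± 76.8, 1465 ± 52.9, 837.9 ± 81.7, 489.2 ± 28.7, 363.1 ± 12.9, 82.5 ± 1.08, 10.8 ± 0.87, 1.18 ± 0.27 and 0.16 ± 0.047 in the same order of genes. The library values of neighbours in the order did not overlap within a group, except for *Col1a1* and *Col1a2* in CRE, whose ranges of 1397 to 1550 and 1429 to 1526 FPKM lay across each other. The spacing changed more than the order did. *Col5a2* stood at 986.0 against 466.6 FPKM for *Col5a1* in GFP, and at 489.2 against 363.1 FPKM in CRE.

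Because the members changed by different amounts, their ratios within a library were compared for 7 pairs that share a heterotrimer, a fibril or a locus. A ratio of counts in 1 library does not depend on how libraries are scaled. Of the 7 pairs, 5 had no overlap between the groups, each with p = 0.1 by the two-sided exact permutation test, the smallest possible, and 0.14 after Benjamini-Hochberg adjustment over the 7 pairs, so no pair could pass 0.05 by this test with 3 libraries a group. The count ratio of *Col5a1* to *Col5a2* was 0.337, 0.364 and 0.341 in GFP and 0.514, 0.602 and 0.567 in CRE, a log2 difference of 0.69 (SE 0.075). Every CRE library thus held more *Col5a1* relative to *Col5a2*, its partner in the main type V heterotrimer, than any GFP library. The ratio of *Col3a1* to *Col1a1* was 0.610, 0.784 and 0.753 in GFP and 0.490, 0.487 and 0.521 in CRE, a log2 difference of -0.51 (SE 0.12). Relative to the type I chain, *Col3a1* was thus lower in every CRE library, with GFP replicate 1 the nearest to them.

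*Col11a1* to *Col5a1* stood at 0.442, 0.455 and 0.449 in GFP and 0.358, 0.333 and 0.338 in CRE, a log2 difference of -0.39 (SE 0.034). *Col5a1* to *Col1a1* went the other way, from 0.177, 0.173 and 0.174 in GFP to 0.212, 0.211 and 0.201 in CRE, a log2 difference of 0.25 (SE 0.027). The minor fibril chain *Col5a1* thus made up more, relative to *Col1a1*, in all 3 CRE libraries. The type I pair itself differed least among the non-overlapping pairs, with *Col1a1* to *Col1a2* at 1.20, 1.19 and 1.17 in GFP and 1.08, 1.13 and 1.13 in CRE (log2 difference -0.089, SE 0.022). *Col5a3* to *Col5a1* overlapped (log2 difference -0.012, SE 0.071, p = 0.9 by the exact permutation test, 0.9 adjusted). *Col5a2* to *Col3a1* overlapped too (0.075, SE 0.18, p = 0.7 by the exact permutation test, 0.817 adjusted), with GFP replicate 1 at 0.862 against 0.606 and 0.676 in the other GFP libraries. With each library left out in turn the log2 difference lay between -0.036 (without GFP replicate 2) and 0.22 (without GFP replicate 1), so its sign was not settled.

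**Figure D3:**
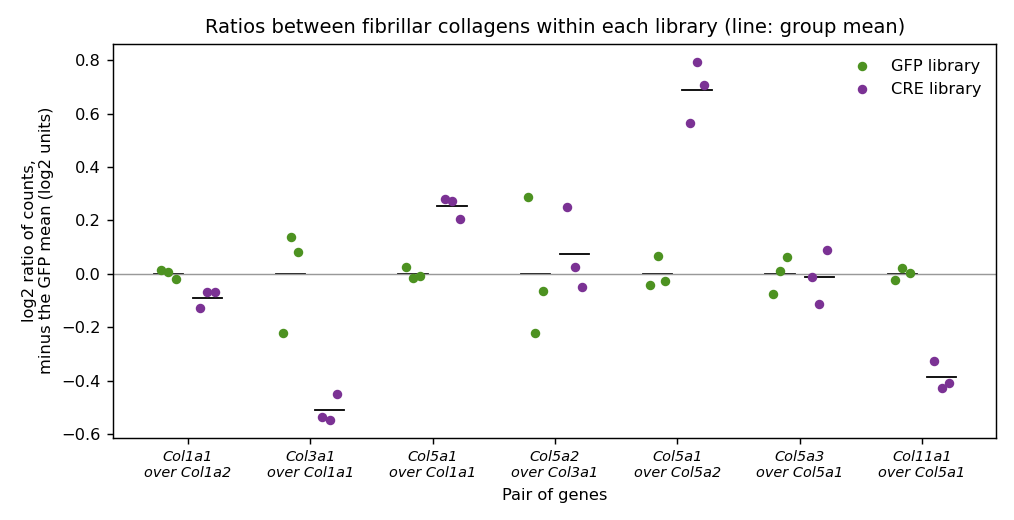
log2 ratio of counts of 7 gene pairs within each library, shifted so that the GFP mean of each pair is at 0; green points are GFP libraries, purple points CRE libraries, and black lines the group means. The CRE points of *Col5a1* over *Col5a2* sit near 0.69 and those of *Col3a1* over *Col1a1* near -0.51, while *Col5a2* over *Col3a1* and *Col5a3* over *Col5a1* overlap.

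The makeup of the fibrillar collagen counts shifted along with the total. Type I chains made up 55.5% ± 1.09 of the members' counts in GFP and 62.1% ± 0.51 in CRE. Type III made up 21.5% ± 2.35 in GFP and 16.3% ± 0.73 in CRE (p = 0.1 by the exact permutation test for each type). The type I part was thus higher, and the type III part lower, in all 3 CRE libraries than in any GFP library. The type V part, 20.6% ± 1.24 against 19.2% ± 0.90, overlapped between the groups (exact permutation p = 0.2), and it sums *Col5a1*, *Col5a2* and *Col5a3*. Type XI made up 2.36% ± 0.059 and 2.33% ± 0.097 (exact permutation p = 0.8), and types XXIV and XXVII together 0.0113% ± 0.0027 and 0.0314% ± 0.0055 (exact permutation p = 0.1; SD, n = 3 each).

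**Figure D4:**
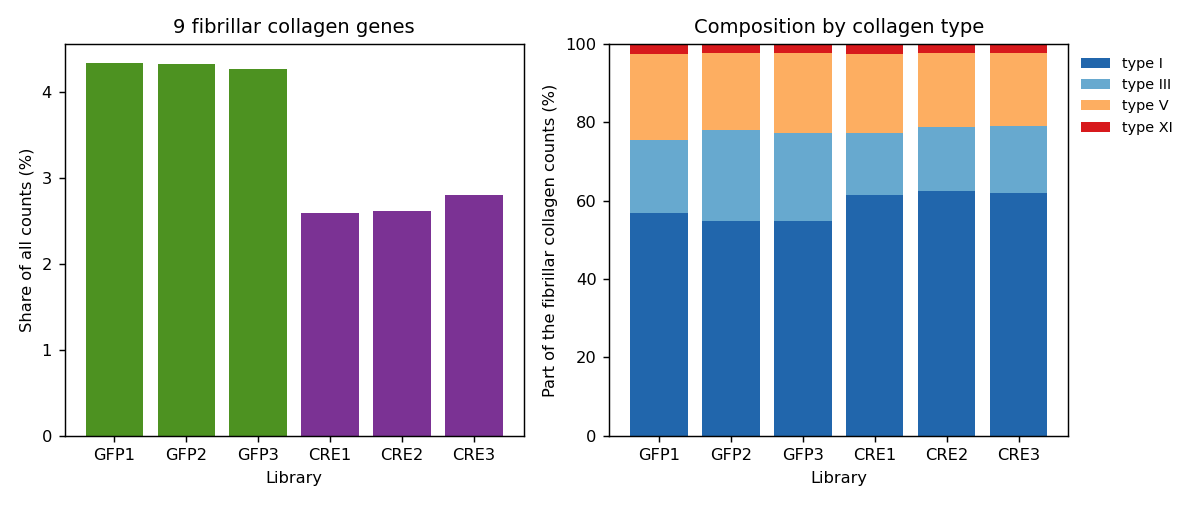
Left, share of all gene counts taken by the 9 fibrillar collagen genes in each library, near 4.31% in GFP and 2.66% in CRE. Right, the members' counts split by collagen type in each library; the type I part is larger and the type III part smaller in all CRE libraries, and types XXIV and XXVII are too small to be seen.

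*Col3a1* and *Col5a2*, the members with the lowest log2 fold changes, are neighbours on chromosome 1. They lie tail to tail on opposite strands with 24614 bases between their ends. Within 500 kb on each side the table holds 2 other tested genes, which were chosen by position after the values of the pair were seen. *Wdr75*, a nucleolar protein gene, had 55.6 CPM in GFP and 46.8 CPM in CRE (log2 fold change -0.25, SE 0.061, edgeR adjusted p = 0.00702). *Slc40a1*, the gene of the iron exporter ferroportin, did not pass the test (0.26, SE 0.22, edgeR adjusted p = 0.353). Neither of them had a change near that of the pair.

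Promoters of 7 members were found in the set of RefSeq promoters used (GRCm38.p6), as 250 bases before to 50 bases after the start site. *Col1a1* and *Col5a2* were not in that set. CG dinucleotides, the sites where TET enzymes act on methylated cytosine, differed widely in number between them. *Col3a1* held 0 CG in the 300 bases, *Col24a1* 6, *Col11a1* 9, *Col1a2* 13, *Col27a1* 18, *Col5a3* 20 and *Col5a1* 34, where the median of 32851 promoters was 7 with quartiles of 3 and 20. The 250 bases before the start site are shown for *Col3a1*, *Col11a1* and *Col5a1*, as examples with no CG, some CG and the most CG among the members called lower that start at the same base in RefSeq and GENCODE. *Col5a3* and *Col24a1* also start at the same base in both, and nothing about fold change is read from the choice. CG dinucleotides are in capitals. The stretches are chr1:45311288-45311537 (+ strand), chr3:114030290-114030539 (+ strand) and chr2:27886175-27886424 (+ strand) in GRCm38.p6.
Col3a1: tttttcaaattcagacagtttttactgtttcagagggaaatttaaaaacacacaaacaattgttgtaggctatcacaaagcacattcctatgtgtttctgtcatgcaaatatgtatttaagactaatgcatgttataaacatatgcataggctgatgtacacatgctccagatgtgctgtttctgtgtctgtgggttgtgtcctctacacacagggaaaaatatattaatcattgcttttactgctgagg
Col11a1: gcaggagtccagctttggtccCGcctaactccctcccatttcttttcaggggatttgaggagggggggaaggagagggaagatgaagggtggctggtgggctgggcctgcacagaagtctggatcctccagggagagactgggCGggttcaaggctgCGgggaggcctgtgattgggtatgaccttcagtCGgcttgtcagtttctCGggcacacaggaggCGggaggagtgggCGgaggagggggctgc
Col5a1: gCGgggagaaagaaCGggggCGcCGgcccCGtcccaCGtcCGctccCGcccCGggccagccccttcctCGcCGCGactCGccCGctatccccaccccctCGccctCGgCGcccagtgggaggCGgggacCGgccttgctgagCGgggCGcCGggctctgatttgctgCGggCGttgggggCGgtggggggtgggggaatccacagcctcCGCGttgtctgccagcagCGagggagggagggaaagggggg

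Sequence motifs were searched on both strands of the 300 bases. The TATA box TATAAA was found in *Col3a1* alone of the 7, and in 13.6% of all promoters. GGAATG, the motif of TEAD factors, was likewise in *Col3a1* alone, and in 14.7% of all promoters. CCAAT was in *Col1a2*, *Col5a3* and *Col11a1* (37.4% of all promoters), and the GC box GGGCGG in *Col1a2*, *Col5a1*, *Col5a3*, *Col11a1* and *Col27a1* (35.7%). The AP-1 motif TGANTCA (7.81%), the SMAD palindrome GTCTAGAC (0.213%) and the CArG box (1.63%) were in none of the 7. A match of letters is no evidence that a factor binds, and no match says only that these letters are not in this window. No methylation or binding data were used here.

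Other collagens and the machinery around the fibril were counted from lists chosen with earlier results known, to be read beside the 25.7% lower and 25.5% higher calls over all tested genes. Of 21 tested collagen genes outside the fibrillar class, 12 were lower and 2 higher by edgeR's test, with a median log2 fold change of -0.40 against -0.65 for the fibrillar members. With library size alone 10 were lower and 4 higher (median -0.24), and on the log2(FPKM + 1) scale 10 and 2 (median -0.11). The lowest were *Col14a1*, which coats fibrils (-1.90, SE 0.086), *Col15a1* of basement membrane zones (-1.46, SE 0.085) and the transmembrane collagen *Col23a1* (-1.41, SE 0.095), and *Col7a1* of anchoring fibrils was higher (1.35, SE 0.13), as was the scarce *Col20a1* (2.74, SE 0.28, 12 to 131 counts), named after its value was seen. Of 21 tested genes for procollagen folding and modification in the endoplasmic reticulum, 16 were lower and none higher, with a median of -0.26. Scaled by library size alone, 8 of these 21 were lower and 1 higher, with a median of -0.095. *Serpinh1*, the procollagen chaperone HSP47, fell by 0.68 on the log2 scale (SE 0.038, edgeR adjusted p = 6.86e-07), from 2546 ± 45.0 to 1593 ± 37.4 CPM. The prolyl 4-hydroxylase genes *P4ha1* (-0.62, SE 0.039) and *P4hb* (-0.49, SE 0.040) were lower as well.

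Of 12 tested genes for propeptide removal and crosslinking, 8 were lower and 2 higher, with a median of -0.42. With library size alone 8 were lower and 4 higher (median -0.26), and on both FPKM scales 7 and 4. *Lox*, the lysyl oxidase that crosslinks fibrils, went from 9578 ± 706.6 to 5969 ± 358.8 CPM (log2 fold change -0.68, SE 0.060, edgeR adjusted p = 1.01e-05). *Tll1*, a propeptide-cleaving protease (-0.86), and *Pcolce2*, an enhancer of that cleavage (-0.58), were lower and the oxidase *Loxl4* was higher (0.85), as was the propeptide-cleaving *Adamts3* (0.96, 36 to 112 counts), named after its value was seen. Fibril assembly partners were lower in 13 of 14 tested genes and higher in none, with a median of -0.68, among them *Col14a1*, *Postn* (periostin, -1.79) and *Lum* (lumican, a proteoglycan that limits fibril width, -1.46). With library size alone 12 were lower (median -0.51), and on both FPKM scales 11, with none higher. *Dcn*, *Lum* and *Postn* here, and *Ddr2* and *Fap* in the lists that follow, also stand in the fibroblast list given above. *Col12a1* and *Col14a1* here are also among the other collagens, and *Mrc2* stands in both the receptor and the breakdown list.

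Collagen receptors were lower in 6 of 8 tested genes and higher in none (4 lower and 2 higher with library size alone), and of the called genes that averaged 10 CPM or more over the 6 libraries *Itga11* (-0.94), *Ddr2* (-0.49) and *Itga1* (-0.48) were the lowest. Genes for breakdown of fibrillar collagen were lower in 7 of 8 and higher in none (5 lower and none higher with library size alone). By the same rule *Ctsk* (cathepsin K, -1.16), the collagenase *Mmp8* (-1.12) and the gelatinase *Mmp2* (-0.34) are named. The lowest of the list was the collagenase *Mmp13*, named after its value was seen, which went from 13.9 ± 1.34 CPM in GFP to 2.12 ± 0.45 CPM in CRE (log2 fold change -2.71, SE 0.16, edgeR adjusted p = 7.95e-07) and so had a mean under 10 CPM; the same holds for *Fap* (-1.11). Of 27 known regulators of collagen transcription, 9 were lower and 6 higher, with a median of -0.096, which is near the shares of 25.7% and 25.5% over all tested genes and is no result about these regulators. With library size alone the balance turned, to 7 lower and 10 higher. The transcription factor genes *Prrx1* (-1.19), *Sox9* (-1.15) and *Runx1* (-0.79) were lower, and *Skil*, a repressor of SMAD signalling (0.29), *Ets1* (0.35) and *Nfya*, a subunit of the CCAAT-binding factor (0.36), were higher.

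**Figure D5:**
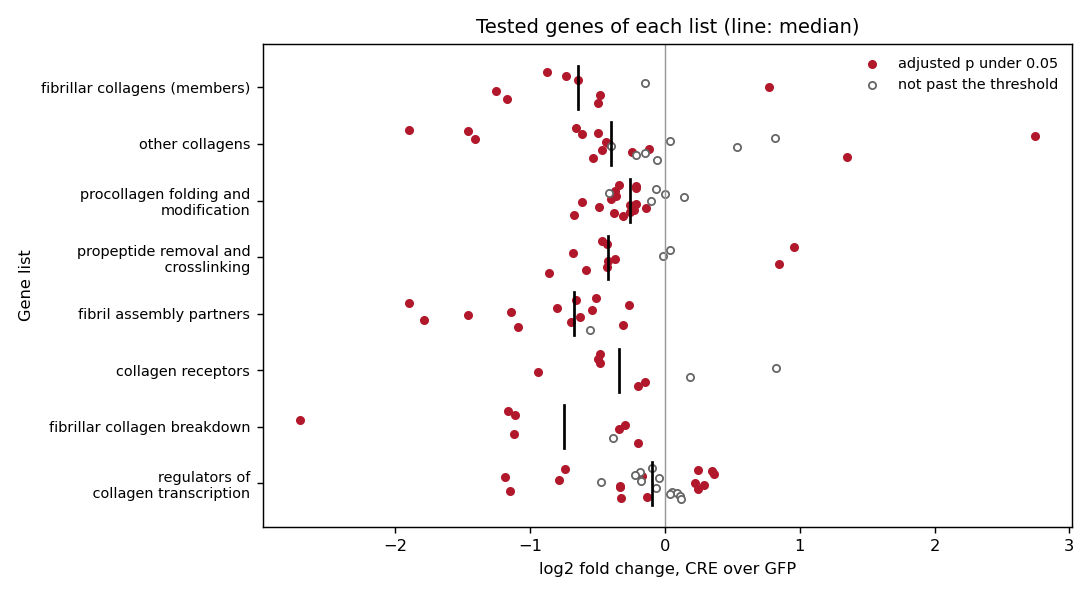
log2 fold change (CRE over GFP) of every tested gene in each list, red where the edgeR adjusted p was under 0.05 and open where not, with black lines at the list medians, which run from -0.096 for regulators of collagen transcription to -0.75 for fibrillar collagen breakdown. Red points lie mostly left of 0, least so among the regulators, where 9 are lower and 6 higher.

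The genes whose profile over the 6 libraries was most like that of a member were taken from 8808 genes whose mean was 10 CPM or more, by the root mean square difference of centred log2 CPM. For *Col1a1* they were *Gaa*, the lysosomal α-glucosidase (0.023), *Lamb2*, a laminin chain (0.037), and *Ptprn* (0.039). For *Col3a1* they were *Zfp36l1*, an mRNA-decay factor (0.036), *Rgs5*, a regulator of G-protein signalling (0.048), and the growth factor *Fgf7* (0.055). For *Col5a3* they were the transcription factor *Gata6* (0.023), *Ugp2* (0.031) and *Ak3* (0.031). None of these 9 genes is a collagen gene, and *Col1a2* was not among the 3 nearest to *Col1a1*. The measure depends strongly on the log2 fold change between the groups, which was -0.74 for *Col1a1*, -0.73 for *Gaa* and -0.65 for *Col1a2*. Nothing about shared regulation is read from these neighbours.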

How the data were processed

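The 6 libraries were assigned to groups by their titles, which also give the replicate numbers. The methods of the study name Trimmomatic for trimming, HISAT2 for alignment (GRCm38), HTSeq-count for gene counts and Cufflinks for FPKM; tool versions and the strand setting are not given in the sources used here, and the labels and methods name different RNA and library kits. The deposited table holds raw counts per gene and library, not normalized. The deposited FPKM values are per kilobase of transcript, scaled by the authors to the reads of each library. The authors' group means, log2 fold change, p-value and false discovery rate in the same table were not used.

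Counts were analysed with edgeR 4.0.16 in R 4.3.3: filterByExpr (minimum count 10, minimum total 15), TMM scaling and the two-sided quasi-likelihood test of CRE against GFP, adjusted by the Benjamini-Hochberg method over 12862 genes. When the test was tried on simulated counts in which few genes were changed, the share of false calls was above the nominal rate. Far more genes were called in the real counts, so that share does not carry over to them. Some of the calls over the whole table are still likely to be false. Standard errors of fold changes were taken from the fold change and its F value (absolute change over root F). CPM are counts scaled to the effective library size. Single values and ratios had exact permutation tests (SciPy 1.17.1). The members and gene lists were chosen with earlier results of these data known, and list counts therefore have no test. All members are named; from each list, up to 3 called genes with the lowest and highest log2 fold change and a mean over all libraries of at least 10 CPM, and for *Col1a1*, *Col3a1* and *Col5a3* the 3 genes with the nearest profile. Gene models are from GENCODE M21 and promoters from RefSeq. Protein sequences were not used here.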

Additional observations from a re-analysis of the deposited data

How the results depend on the processing

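The log2 fold changes of the 8 members that passed the test kept their direction and stayed past the threshold in all 17 alternatives: RLE, upper-quartile, library-size and collagen-free TMM scaling, 2 other count filters, limma-voom, DESeq2 1.42.0, log2(FPKM + 1) and log2(FPKM + 0.1) tested with limma, the replicate block, and each library left out. *Col3a1* ranged from -1.33 to -1.06, *Col1a1* from -0.77 to -0.57, *Col5a1* from -0.51 to -0.32 and *Col27a1* from 0.44 to 0.97. *Col5a3* lay between -0.56 and -0.31. *Col24a1*, which was not called, turned to 0.015 with library size alone, to 0.0063 and 0.055 on the log2(FPKM + 1) and log2(FPKM + 0.1) scales, and lay between -0.49 and 0.089 with 1 library left out; it has no value where at least 10 counts in every library were required. Scaling by library size alone moved the median of all tested genes from 0.0052 to 0.17. It gave 2083 lower and 5529 higher genes over the table, against 3306 and 3277, and the FPKM scales gave 1916 and 4976 (pseudocount 1) and 1909 and 4989 (0.1). List counts under other scalings were added after the data were seen. From FPKM, the log2 difference of the ratio was 0.21 for *Col5a1* to *Col1a1* and -0.35 for *Col11a1* to *Col5a1*.

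The deviations of same-numbered libraries from their group means correlated at 0.046, 0.18 and -0.018. Differently numbered libraries were not compared in this way, so whether replicate numbers pair the libraries is not known. With the replicate number as a block, 3373 genes were lower and 3260 higher, with 7 and 1 of the members, and the block changed no member's call. With 3 libraries a group the exact permutation test cannot go below 0.1, and the counts of *Col24a1* (8 to 29) set the limit on what could be seen for that gene.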

Other observations

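The number of CG dinucleotides in the promoter and the size of the fall were set side by side in the 5 lower members with a promoter in the RefSeq set used, after the values were seen. From the lowest CG number to the highest, *Col3a1* (0 CG) had a log2 fold change of -1.25, *Col11a1* (9) -0.87, *Col1a2* (13) -0.65, *Col5a3* (20) -0.49 and *Col5a1* (34) -0.48. The last 2 were tied within their standard errors (0.059 and 0.044), and their order turned on the log2(FPKM + 1) scale (-0.31 for *Col5a3* and -0.36 for *Col5a1*), on the log2(FPKM + 0.1) scale (-0.33 and -0.36), without GFP replicate 3 (-0.49 and -0.51) and without CRE replicate 2 (-0.44 and -0.48). *Col27a1* (18), which was higher, and *Col24a1* (6), which was not called, do not follow the order of the others, and *Col1a1* and *Col5a2* (-1.17) have no value in it. For *Col1a2* the RefSeq start site that sets the window lies 125 bases from that of GENCODE, and for *Col27a1* 23 bases. Over 8026 tested genes with a single promoter in the table, the median log2 fold change was 0.030 for the 32 genes with 0 CG, -0.15 for the 619 with 1 to 5, -0.087 for the 720 with 6 to 10, 0.017 for the 2413 with 11 to 20, 0.049 for the 3741 with 21 to 40 and 0.013 for the 501 with 41 or more. The share called lower was 31.2%, 34.4%, 31.0%, 23.5%, 21.8% and 27.3% in the same order, and the share called higher 6.25%, 12.8%, 16.8%, 25.2%, 30.2% and 27.7%. Base composition of a promoter goes together with many other properties of a gene, none of which was held fixed.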
